A study of Mus musculus with 3 samples.

Results

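Expression of 6 genes of transcellular calcium and phosphate uptake was described across 3 libraries of mouse intestinal epithelium. They were taken by symbol from the 24346 gene names of the deposited values and all 6 were found. They comprise Trpv6, S100g and Atp2b1 for calcium and Slc34a2, Slc20a1 and Slc20a2 for phosphate. Messenger RNA was sequenced from EDTA-released epithelial cells of the large intestine, the upper small intestine and the lower small intestine, with 1 library for each region. No difference given here therefore has a replicate check, and no p-value was computed. The labels give no treatment, genotype, sex or age for any of the 3 libraries and do not state how many animals contributed. Only the upper small intestinal library carries a strain entry, which names a colorectal cancer mouse model, MC38, and if that entry is true, effects of strain cannot be told apart from those of region wherever this library is used. The study's title concerns an enzyme that hydrolyses extracellular ATP and colonic inflammation, and its design text names only the comparison of small with large intestinal epithelium.

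In transcellular calcium absorption, calcium enters the enterocyte through the channel TRPV6 in the brush border, crosses the cytosol bound to calbindin-D9k, and leaves through the plasma membrane calcium pump PMCA1 on the basolateral side. The hormone form of vitamin D, acting through its nuclear receptor, is known to raise TRPV6 and calbindin-D9k in the small intestine. Phosphate enters with sodium through transporters of the SLC34 family, of which NaPi-IIb (Slc34a2) is the brush-border form of the gut, and of the SLC20 family, PiT1 and PiT2 (Slc20a1 and Slc20a2), which most cell types carry.

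Values were taken as FPKM, counts of fragments relative to transcript length and to library size, though the headers name no unit. On that reading, levels can be compared between genes. Regional and epithelial markers went with the labels for the most part. Cybrd1, listed for the upper small intestine, was below 1 FPKM in all 3 libraries. Fabp6, listed for the lower small intestine, was also at 38.3 FPKM in the large against 0.416 FPKM in the upper library. Car1 and Hoxb13 were at 6414 and 236 FPKM in the large intestine, Fabp1 was at 7255 FPKM in the upper and Fabp6 at 7245 FPKM in the lower small intestine, and all 7 epithelial markers were at 151 FPKM or more in all 3 libraries. T cell markers, 8 genes, summed to 12.4 FPKM in the large intestine, 551 FPKM in the upper and 557 FPKM in the lower small intestine. Stromal and muscle markers, 7 genes, summed to at most 1.94 FPKM. Spacing of low values implied 0.1195, 0.136 and 0.092 FPKM per read in a 1 kb transcript of the large, upper and lower libraries. That would be about 8368200, 7352940 and 10869600 counted reads if each library were scaled by its own total alone. The libraries share a common scale by a step that is not given, so these totals may differ from the true read counts. Intervals in brackets below are 95% counting intervals (Poisson for levels, Clopper-Pearson for ratios) from reads implied by each gene's shortest annotated transcript. They cover counting error only. In bulk RNA, fewer cells of a type and less RNA per cell cannot be told apart.

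Of the 3 calcium genes, S100g and Trpv6 had their lowest value in the lower small intestine, and the sequences before their annotated starts are shown. Only S100g was at least 1 log2 unit of FPKM + 1 below both other libraries there. Trpv6 was instead that far above both others in the large intestine, so the 2 genes do not share a profile. Slc20a1 and Slc20a2 were lowest there as well. For Trpv6 the step between the small intestinal libraries rests on about 9 reads against 0. The sequences run 5′ to 3′ on the gene's strand from 240 to 11 bases before the RefSeq start (GRCm38.p6, the same assembly as mm10). Capitals mark matches on either strand to AGGTCA, the half-site bound by the vitamin D receptor and other nuclear receptors, or to CAAAGTCCA, a form bound by Hnf4 factors. The S100g stretch is chrX:162964610-162964839 and the Trpv6 stretch is chr6:41636416-41636645, both on the minus strand.
S100g: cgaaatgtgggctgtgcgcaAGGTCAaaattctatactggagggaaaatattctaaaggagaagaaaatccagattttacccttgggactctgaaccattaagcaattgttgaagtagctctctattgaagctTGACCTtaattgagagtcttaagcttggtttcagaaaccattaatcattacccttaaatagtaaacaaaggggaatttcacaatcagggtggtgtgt
Trpv6: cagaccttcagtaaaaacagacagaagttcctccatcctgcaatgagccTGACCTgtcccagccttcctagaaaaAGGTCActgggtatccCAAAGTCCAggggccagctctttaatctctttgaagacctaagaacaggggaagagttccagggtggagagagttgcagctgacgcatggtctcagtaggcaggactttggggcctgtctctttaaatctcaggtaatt
Each stretch holds AGGTCA on both strands, at 220 to 215 and 107 to 102 bases before the start in S100g and at 165 to 160 and 191 to 186 in Trpv6. Of 32851 RefSeq promoter windows of 250 bases, 14.02% held at least 1 such match and 1.36% held 2 or more. CAAAGTCCA, present in Trpv6 and not in the S100g window, occurred in 0.384%. Neither window held TATAAA, found in 12.4% of all windows, or CNATAAA, a Cdx-type motif found in 9.81%, and these motifs can overlap each other. Slc20a1 held 1 AGGTCA match before each of its RefSeq starts, and Slc34a2 and Atp2b1 held no match to any of the 4. A match describes letters and not a bound site. The spacing and orientation of the paired matches were not compared with those of any receptor's site. The S100g and Trpv6 windows were also chosen by the genes' levels.

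Of the calcium genes, the carrier S100g was the most abundant in the large and upper libraries but not in the lower. S100g, which encodes calbindin-D9k, was at 229 FPKM in the large intestine (214 to 244), 188 FPKM in the upper small intestine (174 to 203) and 10.2 FPKM in the lower small intestine (7.61 to 13.3). The large and upper libraries were both high and the lower library was far below them. Their counting intervals did not reach that of the lower library. S100g stood at rank 355 of 24346 genes in the large, 495 in the upper and 6337 in the lower library. The large to lower ratio was 22.4 (17.0 to 30.3) and the upper to lower ratio 18.4 (13.97 to 24.9). The large to upper ratio was only 1.22 (1.10 to 1.35) as deposited, which lies outside counting error but within the 2-fold rule of size used here. S100g is a gene of 1 annotated transcript of 480 nt on chromosome X (162961992 to 162964599, mm10, minus strand), lying within Ctps2 on the other strand. Ctps2 was at 5.13, 3.30 and 3.26 FPKM in the large, upper and lower libraries, below S100g in each, and the strand setting of counting is not given in the sources used here. Reads in so short a transcript are overstated where the authors' tool shortened its length by the fragment size, so the S100g intervals may be too narrow.

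Trpv6, the entry channel, was low throughout and highest in the large intestine. It was at 5.21 FPKM in the large intestine (4.22 to 6.31), 0.554 FPKM in the upper small intestine (0.243 to 1.01) and listed at 0 in the lower small intestine. These levels stand for about 100, 9 and 0 reads, and a count of 0 allows up to 0.1198 FPKM by the limit of 3 reads of the shortest transcript, or 0.147 FPKM by the 2-sided interval used for the other levels. A value of 0 can also be a failed estimate. The large to upper ratio was 9.41 (4.94 to 22.0), and no ratio to the lower library is given. Trpv6 lies on chromosome 6 (41620624 to 41636405, minus strand), and no other annotated gene overlaps it. Trpv5, its close relative that works in kidney, was listed at 0 in all 3 libraries.

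Atp2b1, which encodes the exit pump PMCA1, was expressed in every region, with no level more than 1.76-fold above another. It was at 57.9 FPKM in the large intestine (50.5 to 66.1), 32.9 FPKM in the upper (27.1 to 39.7) and 37.7 FPKM in the lower small intestine (32.5 to 43.5). The large to upper ratio was 1.76 (1.39 to 2.23) and the large to lower ratio 1.54 (1.26 to 1.88), both outside counting error and under 2-fold. The upper to lower ratio was 0.873 (0.684 to 1.11), a difference not detectable with reads of the shortest transcript, while reads of the longest gave 0.822 to 0.927. Atp2b1 made up 99.6%, 98.8% and 97.8% of the summed FPKM of the 4 plasma membrane calcium pump genes in the large, upper and lower libraries. Its relatives Atp2b2, Atp2b3 and Atp2b4 were at most at 0.777 FPKM. Atp2b1 lies on chromosome 10 (98914406 to 99026143, plus strand).

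The 3 calcium genes thus had different profiles. S100g exceeded Atp2b1 in the large and upper libraries, while in the lower library Atp2b1 at 37.7 FPKM exceeded S100g at 10.2 FPKM. Trpv6 was the lowest of the 3 genes in each library.

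**Figure D1:**
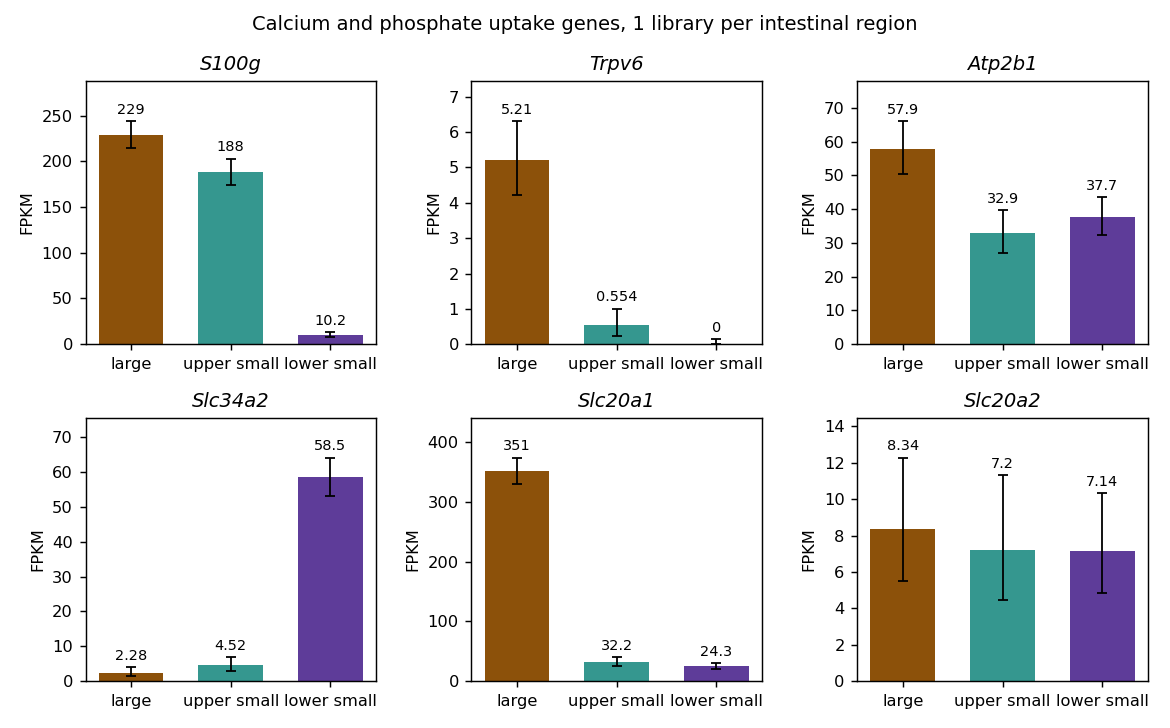
FPKM of each gene in the large, upper small and lower small intestinal library (1 library each); bars start at 0, whiskers are 95% Poisson intervals of implied reads, and each panel has its own scale. Slc20a1 is tall only in the large intestine (351 FPKM), Slc34a2 only in the lower small intestine (58.5 FPKM), and S100g is tall in the large and upper libraries.

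The phosphate importer gene of highest level was Slc20a1 in the large and upper libraries and Slc34a2 in the lower. Slc20a1, encoding PiT1, was at 351 FPKM in the large intestine (330 to 374), 32.2 FPKM in the upper (25.6 to 39.9) and 24.3 FPKM in the lower small intestine (19.7 to 29.9). Only the large intestinal library was high, where Slc20a1 ranked 232 of 24346 genes. The large to upper ratio was 10.9 (8.73 to 13.9) and the large to lower ratio 14.4 (11.6 to 18.0). The upper to lower ratio was 1.32 (0.966 to 1.79), so a difference between the small intestinal libraries was not detectable with reads of the shortest transcript. Reads of the longest transcript gave 1.20 to 1.46. Slc20a1 lies on chromosome 2 (129198764 to 129211616, plus strand), overlapped on the other strand by 2 genes with no value in the files.

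Slc34a2, encoding NaPi-IIb, had a different profile. It was at 2.28 FPKM in the large intestine (1.28 to 3.91), 4.52 FPKM in the upper small intestine (2.92 to 6.77) and 58.5 FPKM in the lower small intestine (53.3 to 64.1). Only the lower library was high. Its level in the large library was 25.6-fold lower (14.8 to 46.2), and that in the upper library 12.9-fold lower (8.53 to 20.3), than its level in the lower library. The large to upper ratio was 0.504 (0.245 to 1.03) with reads of the shortest transcript and 0.379 to 0.671 with the longest. Slc34a2 lies on chromosome 5 (53038081 to 53071664, plus strand), overlapped on the other strand by Gm17182, a gene with no value in the files.

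Slc20a2, encoding PiT2, was nearly level, at 8.34 FPKM in the large intestine, 7.20 FPKM in the upper and 7.14 FPKM in the lower small intestine. Ratios were 1.16 (0.613 to 2.16) for large to upper, 1.17 (0.659 to 2.05) for large to lower and 1.01 (0.547 to 1.87) for upper to lower, so no difference was detectable. Reads of the longest transcript gave tighter bounds, 0.954 to 1.41, 0.980 to 1.39 and 0.834 to 1.22 in the same order. Slc20a2 lies on chromosome 8 (22476788 to 22569612, plus strand), overlapped on the same strand by Gm17491, a gene with no value in the files. Smim19, which overlaps Slc20a2 on the other strand, was at 9.79, 6.95 and 4.37 FPKM in the large, upper and lower libraries, so reads without strand could not be told apart at this locus.

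The 5 sodium-phosphate importer genes of both families summed to 363 FPKM in the large intestine, 45.4 FPKM in the upper and 91.2 FPKM in the lower small intestine. Slc20a1 held 96.9% of this sum in the large, 71.0% in the upper and 26.7% in the lower library. Slc34a2 held 0.629%, 9.96% and 64.1% in the same order. Slc34a1 and Slc34a3, the importers of the kidney tubule, were at most at 0.585 and 1.43 FPKM. These shares are of RNA per length and not of protein or transport.

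**Figure D2:**
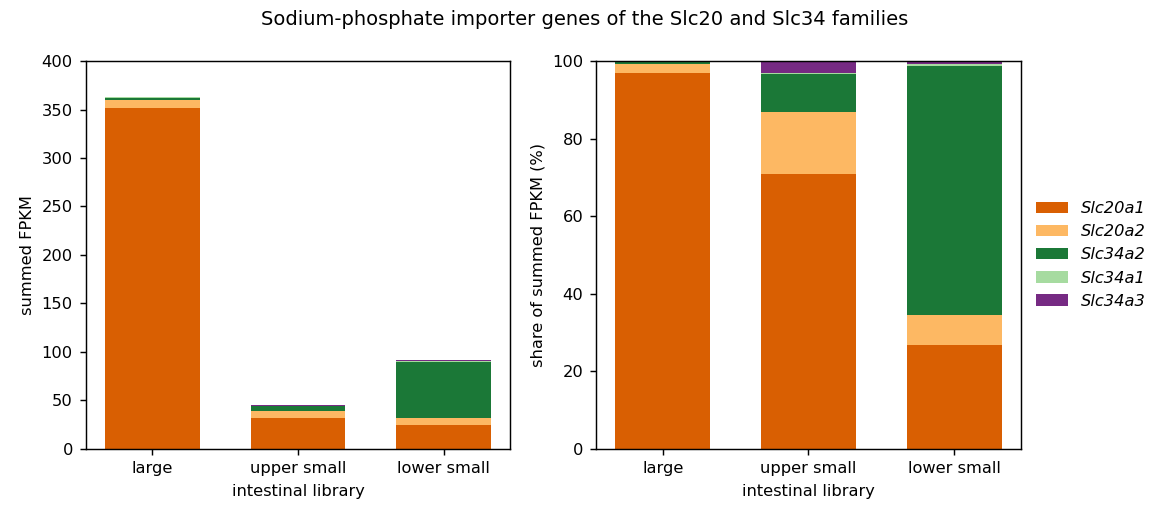
Summed FPKM (left) and share of that sum in percent (right) of Slc20a1, Slc20a2, Slc34a2, Slc34a1 and Slc34a3 in the large, upper small and lower small intestinal libraries. Slc20a1 fills 96.9% of the large intestinal bar and Slc34a2 fills 64.1% of the lower small intestinal bar.

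The 6 genes were then set against all genes by a rule of size, a difference of at least 1 in log2(FPKM + 1), which is 2-fold of FPKM + 1 and understates differences of low genes. Genes that reached 1 FPKM in either library of a pair counted as measured. Against the upper small intestine, 2 of 6 measured genes were higher in the large intestine and none lower, where 11.2% of 12350 measured genes were higher and 11.7% lower. The 2 were Slc20a1, by 3.41, and Trpv6, by 1.999. In the large intestine 3 of 6 were higher and 1 lower when set against the lower small intestine, where 9.75% of 12376 were higher and 10.5% lower. Higher were S100g by 4.36, Slc20a1 by 3.80 and Trpv6 by 2.63, and Slc34a2 differed by -4.18. In that comparison S100g stood at place 77 from the top and Slc34a2 at place 134 from the bottom of the measured genes. Between the small intestinal libraries, 1 of 5 measured genes was higher in the upper library (S100g, by 4.08) and 1 lower (Slc34a2, by -3.43), where 3.92% of 11941 were higher and 2.92% lower. S100g was at place 24 from the top and Slc34a2 at place 41 from the bottom. Trpv6 was not measured there. With 6 genes chosen as a pathway, counts beside these percentages describe the libraries only. The comparisons share libraries, so they are not independent.

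The median difference of the measured genes among the 6 was 0.54 for large minus upper, 1.62 for large minus lower and 0.01 for upper minus lower, beside 0.00057, -4.5e-05 and -0.029 over all measured genes. Rescaling each library to the same sum moved the medians of all genes to 0.36, 0.27 and -0.12. Of the genes past the rule, those higher in the large intestine then made up 69.0% against the upper library (49.0% as deposited) and 64.0% against the lower (48.2% as deposited). Under that scaling Atp2b1 passed the rule against the upper library at 1.20, which is 0.83 above the all-gene median of that scaling, beside 0.80 as deposited. S100g for large minus upper became 0.69, outside its counting interval and still under the rule, beside 0.28 as deposited. That is 0.33 above the all-gene median of that scaling. Over all 3 libraries, Slc20a1 and Trpv6 were at least 1 log2 unit above both others in the large intestine, as were 7.84% of 12579 genes measured in any library. Slc34a2 was that far above both others in the lower small intestine, as were 1.32%. S100g was that far below both others in the lower small intestine, as were 93 genes or 0.739%.

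**Figure D3:**
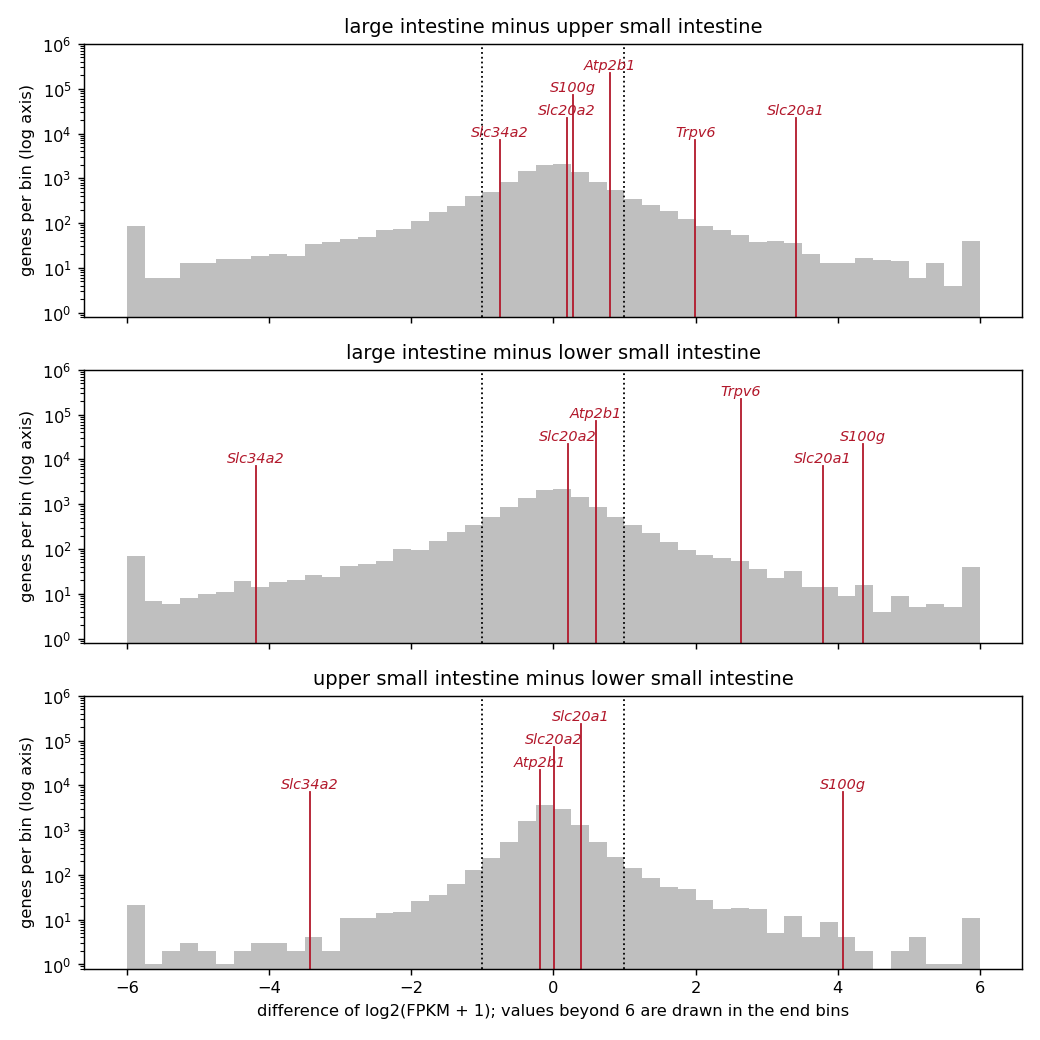
Distribution of log2(FPKM + 1) differences of all measured genes (grey, log count axis) for large minus upper, large minus lower and upper minus lower, with the measured genes of calcium and phosphate uptake as red lines and the rule of size as dotted lines at -1 and 1. S100g at 4.36 and Slc34a2 at -4.18 lie far to either side in the large minus lower panel.

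Genes of most similar profile were found by the largest gap, over the 3 libraries, between centred log2(FPKM + 1) profiles, among 8745 other genes with a mean of at least 5 FPKM. No gene came within 0.25 of S100g. Its closest was the pseudogene Apoo-ps (gap 0.52), followed by Adh1, an alcohol dehydrogenase gene (0.62), at 775 FPKM in the large, 524 FPKM in the upper and 16.9 FPKM in the lower library, and the glutathione transferase gene Gstm1 (0.67). Slc34a2 had 1 gene within 0.25, Duoxa2, the maturation factor of dual oxidase (0.21), at 3.94, 7.16 and 109 FPKM in the large, upper and lower libraries. Duox2 (0.68) and Fam151a (0.68) followed. Slc20a1 had 4 within 0.25, led by the somatostatin receptor gene Sstr1 (0.09), the water channel gene Aqp4 (0.15) and Meg3, a long noncoding RNA (0.18). Trpv6 had 18, led by Nceh1 (0.01), Stard5 (0.03) and Tstd1 (0.07). Because 1 is added to FPKM, genes of low level can match by gap and not by ratio. Nceh1 was at 17.9, 3.78 and 2.09 FPKM in the large, upper and lower libraries, while Trpv6 was listed at 0 in the lower. Sstr1 was at 18.85, 0.651 and 0.344 FPKM in the same order, a steeper fall by ratio than that of Slc20a1. The flatter profiles were common, with 1019 genes within 0.25 of Atp2b1 and 3384 of Slc20a2. Their closest genes were Map1lc3b, Acpp and Nbeal2 for Atp2b1 and Egfr, 3110002H16Rik and Snap47 for Slc20a2, all at gaps of at most 0.01.

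Genes of vitamin D action and metabolism were counted next. For this list and those that follow, the shares of all measured genes that passed as higher and lower serve as background. They were 11.2% and 11.7% for large against upper, 9.75% and 10.5% for large against lower, and 3.92% and 2.92% for upper against lower. Of 10 genes listed, 8 were measured. For large against upper none passed as higher and 2 as lower, for large against lower 1 as higher and 1 as lower, and for upper against lower 3 as higher, where 3.92% of all measured genes were higher, and none as lower (medians -0.05, 0.16 and 0.40). Vdr, the vitamin D receptor gene, was at 172 FPKM in the large, 123 FPKM in the upper and 104.9 FPKM in the lower library, none of these differences passing the rule. Its partner gene Rxra was at 24.6, 31.2 and 29.6 FPKM in the same order. Cyp24a1, the vitamin D-induced gene of vitamin D breakdown, was listed at 0 in the large and upper libraries and at 0.054 FPKM in the lower. Slc30a10, a manganese exporter gene, was at 11.4 FPKM in the large and 11.9 FPKM in the upper against 4.51 FPKM in the lower library. It was the gene of this list that passed the rule in both comparisons with the lower library as higher, as S100g did. Cyp2r1, a vitamin D 25-hydroxylase gene, was at 1.61, 1.44 and 0.642 FPKM in the large, upper and lower libraries and did not pass. Cyp3a11, a drug-metabolizing cytochrome that also acts on bile acids, was at 0.059, 380 and 11.8 FPKM in the large, upper and lower libraries, and Cyp27a1, a sterol and vitamin D hydroxylase gene, at 12.2, 43.2 and 11.3 FPKM.

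Other calcium transport genes of the plasma membrane numbered 13, of which 6 were measured with the large intestine. Higher in the large intestine were 3 against the upper library and 2 against the lower, and none was lower (medians 0.62 and 0.35). Over all measured genes, 11.2% and 9.75% were higher and 11.7% and 10.5% lower in these comparisons. None of 5 passed between the small intestinal libraries (median 0.10). Slc8a1, a sodium-calcium exchanger gene, was at 4.65 FPKM in the large intestine against 0.116 FPKM in the upper and 0.050 FPKM in the lower library. Stim1, the sensor of calcium stores, was at 42.2 FPKM in the large intestine against 10.5 and 9.78 FPKM in the upper and lower libraries. Orai3, a store-operated channel gene, was at 6.71, 2.67 and 3.38 FPKM in the large, upper and lower libraries and passed the rule against the upper library alone. Cacna1d, a voltage-gated calcium channel gene proposed as another entry route in the gut, was at 2.06, 3.88 and 2.79 FPKM and did not pass.

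Of 9 measured genes of calcium stores, 3 were higher and none lower in the large intestine in each of its comparisons, with medians of 0.41 against the upper and 0.19 against the lower library. The shares over all measured genes were 11.2% higher and 11.7% lower against the upper library, and 9.75% and 10.5% against the lower. None passed between the small intestinal libraries (median -0.24). The 3 were Atp2a3, encoding the reticulum pump SERCA3, at 242, 27.7 and 55.5 FPKM in the large, upper and lower libraries, Atp2c2, a secretory pathway pump gene, at 30.3, 4.00 and 7.14 FPKM, and Slc8b1, the mitochondrial sodium-calcium exchanger gene, at 28.7, 1.37 and 1.67 FPKM. Atp2a2, encoding the common pump SERCA2, was at 70.4, 84.1 and 111 FPKM and did not pass.

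Other calcium buffers and S100 genes ranged from genes listed at 0 throughout to S100a6 at 1354 FPKM in the large intestine. Calb1, Calb2 and Pvalb, the buffers calbindin-D28k, calretinin and parvalbumin, were listed at 0 in all 3 libraries. Of 18 genes, 7 were measured against the upper library, with 5 higher and none lower in the large intestine (median 2.52). Against the lower library 8 were measured, with 5 higher and 2 lower (median 1.76), and between the small intestinal libraries none was higher and 3 lower in the upper (median -0.91). Beside these, 11.2% of all measured genes were higher and 11.7% lower for large against upper. For large against lower the shares were 9.75% and 10.5%, and for upper against lower 3.92% and 2.92%. S100a6 was at 1354 FPKM in the large, 38.1 FPKM in the upper and 88.0 FPKM in the lower library. S100a14, S100a1, S100a13 and S100a16 were the other genes past the rule in the large intestine. S100a14 was at 83.2, 2.45 and 12.7 FPKM in the large, upper and lower libraries. S100a6, S100a14 and S100a16 passed as lower for upper against lower, the direction opposite to S100g. S100a13 was at 60.0, 7.67 and 12.4 FPKM and S100a1 at 171, 33.0 and 22.5 FPKM, and neither passed between the small intestinal libraries. The 2 genes that passed as lower for large against lower were S100a10, at 351, 435 and 708 FPKM in the large, upper and lower libraries, and S100a9, listed at 0 in the large and at 0.399 and 1.61 FPKM in the upper and lower libraries. S100a11, at 215, 123 and 235 FPKM, did not pass in any comparison.

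Among the 11 partners and regulators of Trpv6, 10 were measured, of which 1 passed as higher and 2 as lower for large against upper, and 1 as higher and 3 as lower for large against lower (medians -0.22 and -0.44). Of all measured genes, 11.2% were higher and 11.7% lower for large against upper, and 9.75% and 10.5% for large against lower. With 10 genes these counts describe the libraries only. None passed between the small intestinal libraries (median -0.20). S100a10 and Anxa2, whose products carry the channel to the membrane, were at 351 and 386 FPKM in the large, 435 and 544 FPKM in the upper and 708 and 654 FPKM in the lower library, so neither was low where Trpv6 was listed at 0.

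Other genes of phosphate transport and its control numbered 18 in the files. For large against upper 3 of 11 measured passed as higher and 3 as lower, and for large against lower 6 of 10 passed as higher and 2 as lower (medians 0.45 and 1.11). Between the small intestinal libraries 1 of 10 was higher in the upper and none lower (median 0.49). The shares higher and lower over all measured genes were 11.2% and 11.7%, 9.75% and 10.5%, and 3.92% and 2.92% in the same order of comparisons. Xpr1, the phosphate exporter gene, was at 24.2 FPKM in the large, 13.96 FPKM in the upper and 10.3 FPKM in the lower library and passed the rule against the lower alone. Slc17a4, an organic anion and phosphate transporter gene of the gut, was at 33.6, 13.4 and 13.2 FPKM. Slc9a3, the brush-border sodium-proton exchanger NHE3, was at 58.7, 34.1 and 8.32 FPKM, so it was low in the lower library, where Slc34a2 was high. Pdzk1, a brush-border scaffold gene, was at 3.63, 128 and 87.7 FPKM, and Slc9a3r1, encoding the scaffold NHERF1, at 164, 636 and 536 FPKM. Both passed as lower in the large intestine against either library. Slc9a3r2, a second scaffold gene of that family, was at 4.55, 0.985 and 1.31 FPKM.

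**Figure D4:**
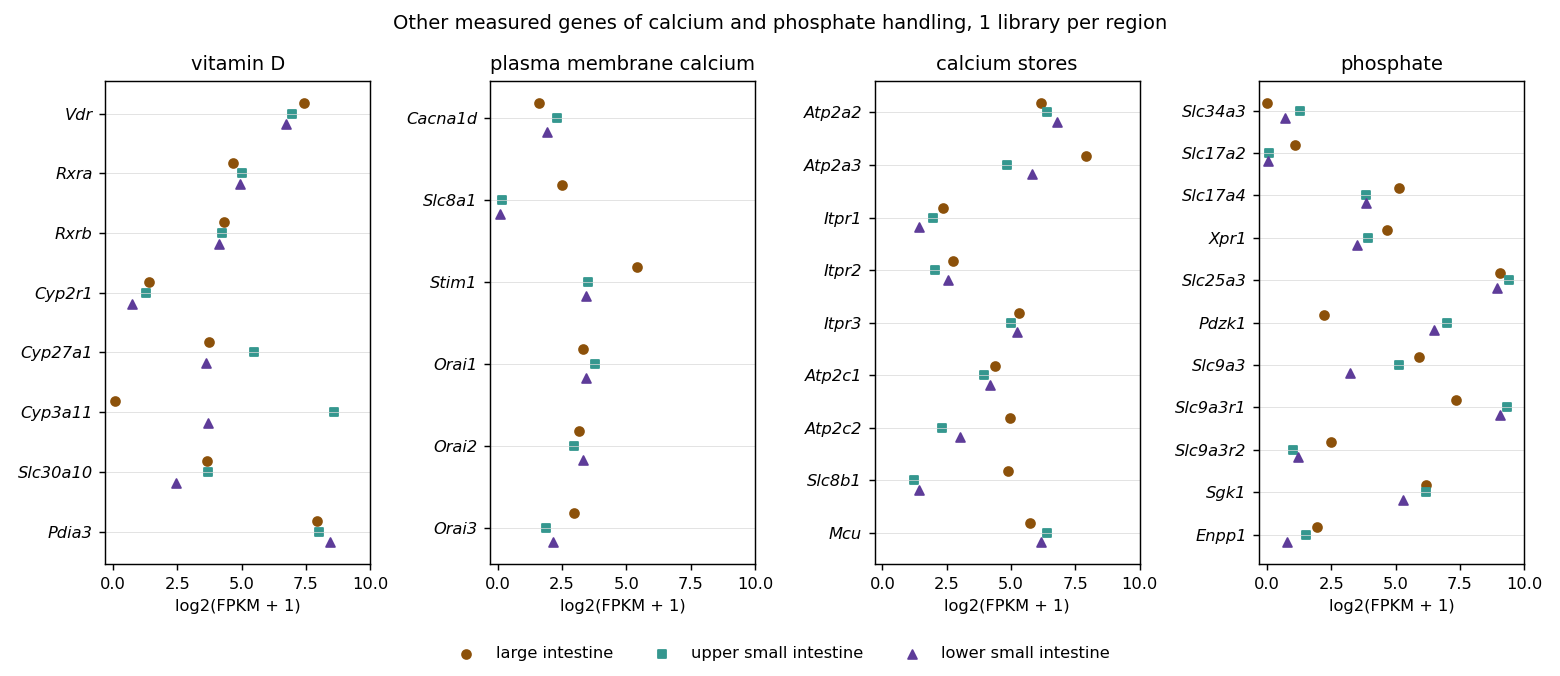
Levels, as log2(FPKM + 1), of the measured genes of the vitamin D, plasma membrane calcium, calcium store and phosphate lists in the large (circles), upper small (squares) and lower small (triangles) intestinal libraries. Stim1, Atp2a3, Atp2c2 and Slc8b1 lie to the right in the large intestine, and Pdzk1 and Slc9a3r1 to the left.

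Markers of other cells and of absorptive cells moved with region as well. Vil1, a microvillus gene, was at 278 FPKM in the large, 974 FPKM in the upper and 913 FPKM in the lower library, and Krt20, a keratin of mature surface cells, at 361, 702 and 968 FPKM. The other epithelial markers went the other way against the upper library, where Krt18 and Krt19 passed as higher in the large intestine, by 1.07 and 1.02. Of the 7, 2 passed as higher and 1 as lower for large against upper (median 0.76), none as higher and 2 as lower for large against lower (median 0.09), and none between the small intestinal libraries. All 8 T cell markers passed as lower for large against lower and 7 of 7 measured did so for large against upper, and none passed between the small intestinal libraries. T cell markers summed to 551 and 557 FPKM in the upper and lower libraries and Paneth cell markers to 16911 and 17031 FPKM, while sums of some other cell types differed more, as given next. Goblet cell markers, 5 genes, summed to 6696, 5805 and 6793 FPKM in the large, upper and lower libraries, with Zg16 the largest part of each sum. Muc2, the main gel-forming mucin gene, was at 1128, 151 and 330 FPKM in the large, upper and lower libraries and passed as higher in the large intestine against both, as Slc20a1 and Trpv6 did. Clca1 was at 825, 198 and 415 FPKM and passed as higher against the upper library, and both genes passed as lower for upper against lower. Tff3, at 992, 1835 and 2215 FPKM, passed as lower for large against lower. Enteroendocrine markers, 6 genes, summed to 275, 258 and 164 FPKM, with 2 higher and 1 lower for upper against lower. Paneth cell markers summed to 19.6 FPKM in the large intestine, and all 5 passed as lower there against either library. Myeloid markers, 7 genes, summed to 18.5, 15.9 and 29.3 FPKM, of which Cd14, which ran against the others, was 15.7, 5.61 and 6.07 FPKM. Cd14 was the 1 myeloid marker to pass as higher in the large intestine, while 1 of 5 measured passed as lower there against the upper and 4 of 6 against the lower library (medians -0.72 and -1.31). B and plasma cell markers, 6 genes, summed to 0.097, 30.1 and 30.7 FPKM, and endothelial markers, 4 genes, to 1.35, 0.963 and 1.48 FPKM in the same order. All 6 large intestinal markers passed as higher in the large intestine against either library, all 5 lower small intestinal markers in the files passed as lower for upper against lower, and 5 of 5 measured upper small intestinal markers passed as higher. The other listed upper small intestinal marker, Cybrd1, did not reach 1 FPKM in any library. Of 4 lower small intestinal markers measured for large against upper, 2 passed as higher, Fabp6 among them, and 2 as lower. The part of these cells in the differences of S100g and Slc34a2 between regions and of Slc20a1, Trpv6 and Atp2b1 from the large intestine was not tested.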

How the data were processed

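Per the labels' protocols, epithelial cells were released from mouse intestines by 20 min at 37 °C in buffer with 5 mM EDTA and collected by centrifugation (780 g, 5 min, 4 °C), and libraries were made from total RNA with a TruSeq stranded mRNA kit. No cell sorting is described. Each deposited file gives 1 value per gene, taken as FPKM because Cufflinks 2.2.1 is the only quantifier among the tools of the submitters' processing notes. Named there without roles are also SAMtools 0.1.19, Bowtie2 2.2.3, TopHat2 2.0.13 and the build mm10. The headers name no unit. Not given in the sources used here are the annotation, filters and strand setting. Median ratios of the libraries to their geometric mean were 1.00, 0.999 and 1.01 (large, upper, lower) while their FPKM sums were 521651, 693218 and 646262, so the values share a common scale by a step that is not given.

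Coordinates and transcript lengths came from GENCODE M21 (GRCm38, the assembly of mm10), which held 23310 of the 24346 names, and promoters from RefSeq (GRCm38.p6), which held 5 of the 6 genes. Implied reads are FPKM times shortest transcript length over a step fitted to low values of single-transcript genes of at least 1500 nt. Of 403, 406 and 400 such genes (large, upper, lower), 70.5%, 72.9% and 73.8% came out whole to within 0.15 read, too few for a test on counts. Differences are of log2(FPKM + 1). With 1 library per region no test was possible. Calling and step fitting were tested on simulated Poisson counts with a known step and a known length for each gene. Those data held no variation between animals or preparations, so they cannot show how far the calls here would repeat.

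The 6 genes and the 20 gene lists (8 of pathways, 12 of markers) were chosen with earlier results of these data known. Named genes were the 6, their close relatives, up to 6 measured genes of largest difference per list, and 3 of closest profile per gene. A few further genes, such as Rxra, Atp2a2 and Xpr1, were named after their values were seen. Python 3.11.15, pandas 2.3.3, scipy 1.17.1 and matplotlib 3.10.9 were used. The values of 1 listed gene are not reported here.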

Additional observations from a re-analysis of the deposited data

How the results depend on the processing

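The counts of the 6 genes past the rule stayed within 1.5 times in all 42 recomputations. The only change was 3 in place of 2 higher in the large than in the upper library (Atp2b1 added), with libraries rescaled to equal sums, with or without short RNA genes. No difference of a called gene changed sign, and 59 of 72 recomputed differences stayed within the counting interval. Trpv6 against the lower library has no such interval, so its recomputed differences there were all counted among those that did not stay. With a 3-fold rule, genes higher and lower over the whole table were 712 and 742 for large against upper, 587 and 653 for large against lower, and 215 and 145 for upper against lower. Equal sums gave 2220 genes higher in the large than in the upper library (1387 as deposited). A pseudocount of 0.1 gave 536 genes lower in the upper than in the lower library (349 as deposited) and 206 genes lowest in the lower library (93 as deposited). Of 378 recomputed counts for the pathway and T cell lists, 49 moved by more than 1.5 times. Reads implied by the longest transcript left the counting interval of those implied by the shortest in 13 of 18 cases, which changes interval widths and not levels. The cause of these shifts was not tested. No paired analysis was possible because each region has 1 library. Depth limits Trpv6 in the small intestine and Slc20a2, and no replicate shows how far animals or preparations differ.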

Other observations

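Magnesium transport genes and claudins, which serve neighbouring routes of mineral uptake, held a few genes past the rule of size. Trpm6, the magnesium entry channel gene of gut and kidney, was at 19.7 FPKM in the large, 0.438 FPKM in the upper and 2.72 FPKM in the lower library, while its relative Trpm7 was at 19.5, 19.1 and 18.1 FPKM. Cnnm4, a basolateral magnesium transport gene, was at 95.6, 36.8 and 53.3 FPKM. Of 8 measured magnesium genes, 2 passed as higher and 1 as lower for large against upper, 1 as higher and 1 as lower for large against lower, and 1 as higher and 2 as lower for upper against lower. Over all measured genes 11.2% and 11.7%, 9.75% and 10.5%, and 3.92% and 2.92% passed as higher and lower in the same comparisons, and with so few genes the counts describe these libraries only. Trpm6 thus exceeded both small intestinal libraries in the large intestine, as Trpv6 did, but it was lower in the upper than in the lower small intestine, where Trpv6 was not measured.

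Of 7 claudin genes of the paracellular route, 1 passed as higher and 1 as lower for large against upper, 1 as higher and 2 as lower for large against lower, and none of 6 passed between the small intestinal libraries. The all-gene shares given for the magnesium genes apply here too, and these counts likewise describe the libraries only. Cldn8, a barrier claudin gene of the colon, was at 17.6 FPKM in the large, 0.058 FPKM in the upper and 0.782 FPKM in the lower library. Cldn15, a pore-forming claudin gene of the small intestine, was at 92.4, 348 and 246 FPKM. Cldn2 and Cldn12, linked to paracellular calcium, were at 67.6, 40.3 and 73.1 FPKM and at 22.3, 12.4 and 15.5 FPKM in the large, upper and lower libraries and did not pass the rule in any comparison.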
